A study of Mus musculus with 8 samples.

Results

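The genes described here encode the proteins that a lactating mammary gland puts into milk, together with Stat5a, which encodes a transcription factor that switches them on. There are 10 of them among 21938 protein-coding genes of the GENCODE M21 annotation. They are the caseins Csn1s1, Csn2, Csn1s2a, Csn1s2b and Csn3, the whey proteins Wap and Lalba, the milk fat globule protein Btn1a1, the mucin-like protein Glycam1, and Stat5a. For each gene, the ATAC-seq peaks that overlapped the gene body or lay within 10 kb of any of its annotated transcription start sites were taken. This gave 20 merged peak regions, of 183173 over the genome.

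Milk protein genes are silent in most tissues and are induced in the alveolar luminal cells of the mammary gland during pregnancy. Prolactin binds its receptor, the kinase Jak2 phosphorylates STAT5, and STAT5 dimers bind a palindromic DNA element in milk gene promoters and enhancers, together with the glucocorticoid receptor and factors such as C/EBPβ, NFI and Elf5. The casein genes lie side by side in a single cluster, and their regulatory elements are spread through it. ATAC-seq marks open chromatin through the preference of the Tn5 transposase for DNA that is not wrapped in nucleosomes, and a peak is a place where its insertions pile up.

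The cells were lines grown from mammary tumors of FBV/N mice (the spelling of the labels) that carry polyoma middle T (PyMT), which the MMTV promoter drives in mammary epithelium. They were either WT or Lats1-CKO, which lack the Hippo pathway kinase Lats1, and all 4 groups carried PyMT, the WT controls included. FACS separated each genotype into luminal cells (EpCAM-high, CD49f-high) and basal-like cells (EpCAM-low, CD49f-high), which were then expanded for a short time in culture. Each group had 2 libraries, which keep the study's names. The WT libraries were BM5 and BM1 for luminal cells and BM6 and BM2 for basal-like cells, and the Lats1-CKO libraries BM7 and BM3 for luminal cells and BM8 and BM4 for basal-like cells. No drug or hormone treatment is given, and serum was among the stated supplements of the medium. The age of the mice behind these lines, the number of lines or clones behind the libraries and the promoter that drives the Cre are not given in the sources used here. The study calls the 2 libraries of a group biological replicates. The labels do not say whether they came from separate lines, sorts or cultures, and p-values here measure only the spread between these libraries.

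BM3 stood apart from the other libraries before any gene was considered. It had 14753 peaks, against 51497 to 99022 in the other 7, and a peak near 46.5% of protein-coding genes, against 70.2% to 77.2%. The study's methods state that a Lats1-CKO luminal replicate was set aside for quality when replicates were combined, without naming it, so the results that rest on BM3 are given with and without it. The other Lats1-CKO libraries had 86279 to 99022 peaks and the WT libraries 51497 to 72685. Of 15 luminal marker genes, 13 to 15 had a peak within 1 kb of a start site in the luminal libraries other than BM3, where 7 had, and 6 to 12 in the basal-like libraries. Of 12 basal-like marker genes, 7 to 9 had such a peak in the basal-like libraries and 5 to 9 in the luminal ones. Counts of the basal-like list thus did not tell the sorted populations apart. Those of the luminal list did not overlap when BM3 was set aside, but were close, with 13 in BM5 and BM7 and 12 in BM2. Of all protein-coding genes, 50.5% to 58.8% had a peak within 1 kb of a start site in the libraries other than BM3, and 34.3% in BM3. Peaks within 1 kb were found at 0 to 5 of 8 fibroblast, 0 to 4 of 6 immune and 0 to 2 of 4 endothelial marker genes, with 0 of each list in BM3. Lats1 itself had 3 to 6 peaks in its window in 7 libraries, Lats1-CKO ones included, and 0 in BM3. Peaks at Lats1 do not check the deletion.

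Chromatin at the milk protein genes was largely without peaks, while Stat5a had a peak in every library. Of the 10 genes, 6 had a peak in at least 1 library, against 84.4% of all protein-coding genes. Csn1s1, Csn2, Csn1s2a and Glycam1 had none in any of the 8 libraries, which held for 15.6% of protein-coding genes (and for 16.9% when only the 10 kb around start sites was searched, and not the gene body). Within 1 kb of a start site, only Csn3, Btn1a1 and Stat5a of the 10 had a peak in any library, against 66.4% of protein-coding genes. They numbered 3 in BM1 (57.3% of protein-coding genes), 3 in BM2 (55.4%), 3 in BM8 (57.8%), 2 in BM5 (50.5%), 2 in BM6 (52.1%), 2 in BM7 (58.8%), 1 in BM4 (56.7%) and 1 in BM3 (34.3%). A gene without a peak is a gene where the caller found none, and the depth of the library bears on that along with the chromatin. The number of reads in each library is not in the peak lists, so no limit can be set on what was missed.

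The number of the 10 genes with a peak was 5 in BM1 (background 74.6% of protein-coding genes) and 3 in BM5 (72.4%), both WT luminal. It was 5 in BM2 (73.5%) and 6 in BM6 (70.2%), both WT basal-like. The Lats1-CKO luminal libraries had 5 in BM7 (77.2%) and 1 in BM3 (46.5%), and the Lats1-CKO basal-like libraries 3 in BM4 (76.4%) and 6 in BM8 (76.7%). The count stayed below the background in every library, and the replicates of a group differed by up to 4 genes. The mean was 4.75 ± 1.26 genes in WT (SD, n = 4 libraries) and 3.75 ± 2.22 in Lats1-CKO (n = 4), or 4.67 ± 1.53 (n = 3) without BM3. It was 3.5 ± 1.91 in luminal libraries (4.33 ± 1.15 without BM3) and 5.00 ± 1.41 in basal-like ones. The difference between genotypes was smaller than the SD of either genotype, and that between populations lay between the SDs of the populations. Neither was tested.

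**Figure D1:**
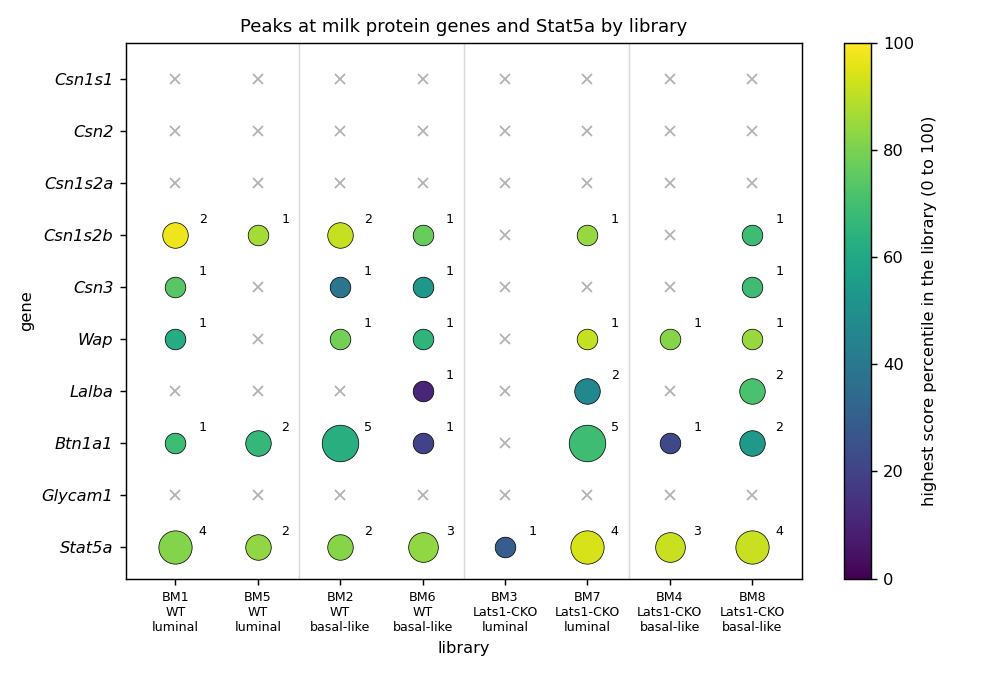
Each row is a gene and each column a library, ordered by group. Circles mark genes with at least 1 peak in the gene body or within 10 kb of a start site, with color for the highest score percentile (0 to 100), size and the number beside it for the number of peaks, and crosses for no peak. Csn1s1, Csn2, Csn1s2a and Glycam1 have crosses throughout, and Stat5a has circles in all 8 libraries.

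**Figure D2:**
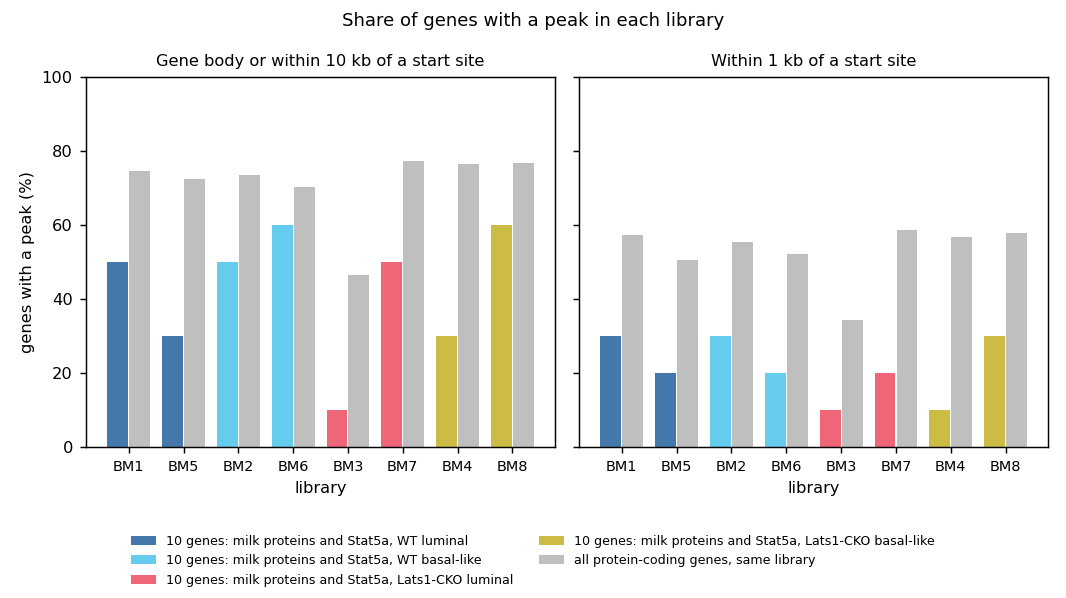
Colored bars give the percentage of the 10 genes with a peak in each library and grey bars the percentage of all protein-coding genes, for the gene body and 10 kb around start sites (left) and for 1 kb around start sites (right). The colored bar is below the grey bar in every library and in both panels.

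The height of a peak was compared between libraries through its score percentile, the share of peaks in the same library with a lower score. Values of a gene are of its highest peak, and 0 where it had none. For 18524 protein-coding genes with a peak in at least 1 library, a two-sided exact permutation test compared 4 with 4 libraries, and p-values were adjusted over all of these genes by the Benjamini-Hochberg method. The lowest p this design can give is 0.0286. An adjusted p of 0.05 would need most genes to be at that p, so adjusted values say little about single genes. No gene passed an adjusted p of 0.05 in either comparison. At an unadjusted p under 0.05 there were 189 genes for genotype and 207 for population. With the libraries split by genotype, 0.394% of genes were higher in every Lats1-CKO library than in every WT library and 0.626% were lower in every Lats1-CKO library. None of the 10 genes was among either. With the libraries split by population, 0.977% of genes were higher in every basal-like library and 0.14% were lower, again with none of the 10.

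Without BM3, the background itself moved. The median over all genes of the Lats1-CKO minus WT difference went from -2.01 to 4.66 percentile points, and 13.1% of genes were higher in every Lats1-CKO library, against 0.686% lower. For population, 0.994% of genes were higher in every basal-like library and 2.48% lower. Percentiles depend on the number of weak peaks called in a library, and the Lats1-CKO libraries other than BM3 had the most peaks; the part of this in the shift was not tested. In sorted populations such as these, a lower value cannot tell fewer cells with an open site from a less open site in each cell.

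The caseins make up most of the protein of milk. They bind calcium phosphate and assemble into micelles, with κ-casein, the product of Csn3, on the surface. Csn1s1 (ENSMUSG00000070702, chr5:87666208-87682578, plus strand) and Csn2 (ENSMUSG00000063157, chr5:87692624-87699630, minus strand) encode the α-S1 and β-caseins, and Csn1s2a (ENSMUSG00000061937, chr5:87774567-87788797, plus strand) an α-S2 casein. No library had a peak in the windows of these 3 genes. Coordinates are of GRCm38 (mm10).

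The casein genes were also read as 1 unit, the 286 kb stretch from 10 kb before Csn1s1 to 10 kb after Csn3, chr5:87656208-87942665. It held 4 peaks in BM1 and 4 in BM5, 3 in BM2 and 3 in BM6, 3 in BM7 and 3 in BM8, and 0 in BM3 and 0 in BM4. BM3 had few peaks anywhere, but BM4, with 86279 peaks, had more than any WT library. The density in the stretch was 14.0 peaks per Mb in BM1, where the whole genome had 27.6, and 0 in BM4, where the whole genome had 32.8. In the other libraries with peaks there it was 10.5 to 14.0 per Mb, against 19.6 to 37.6 over the genome, so the stretch was below the genome density in all 8. The peaks fell into 7 merged regions, of which 3 are in the windows of Csn1s2b and Csn3.

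Of the other 4 regions, the strongest lay between Csn1s2b and Csn3, 14686 bp before the start site of Odam, at chr5:87870216-87870470. Its score percentile was 69.0 in BM1, 34.7 in BM6 and 43.3 in BM7, with no peak in the other 5 libraries. Odam encodes a protein of the tooth and junctional epithelium and is a neighbor of the caseins. The remaining 3 had percentiles of at most 28.5. They were found in BM5 alone at chr5:87735048-87735132 (8.2) and chr5:87855377-87855473 (28.5), and in BM5, BM7 and BM8 at chr5:87940913-87941011 (8.2, 6.84 and 8.57).

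**Figure D3:**
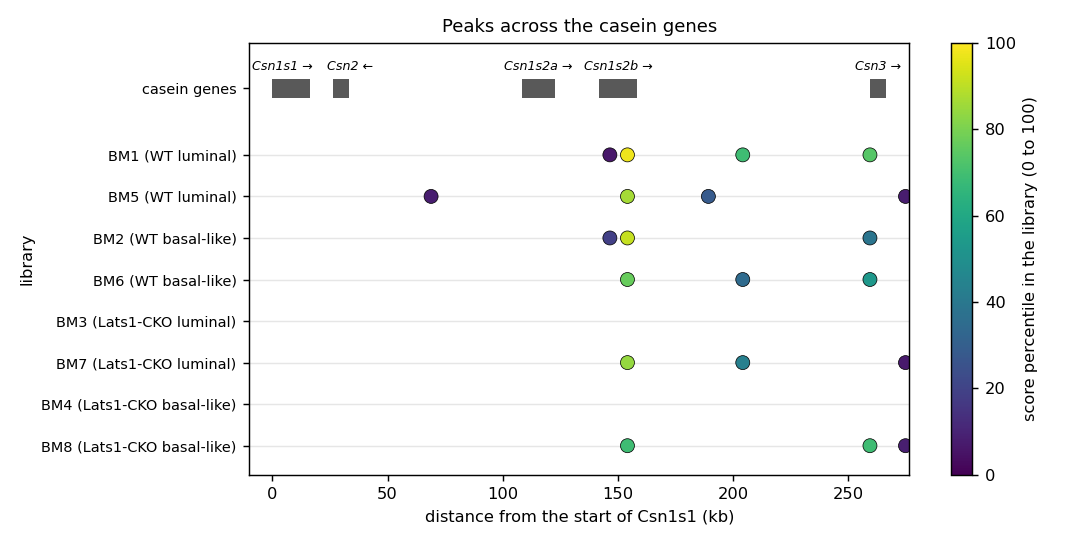
Peaks across the casein genes, by distance from the start of Csn1s1 in kb (horizontal axis) and library (vertical axis), with genes as bars at the top and arrows for their strand. Color gives the score percentile in the library (0 to 100). The column of points inside Csn1s2b is present in 6 libraries, and the rows of BM3 and BM4 are empty.

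Csn1s2b (ENSMUSG00000061388, chr5:87808082-87824426, plus strand) encodes another α-S2 casein and had the highest peak of the milk protein genes. It lies in an intron, 12222 bp inside the gene, at chr5:87820108-87820501, and the nearest start site of a protein-coding gene is that of Prr27, 5382 bp away. In WT its percentile was 97.3 in BM1 and 86.3 in BM5, the luminal libraries, and 91.4 in BM2 and 76.7 in BM6, the basal-like ones. It was 84.3 in BM7 (Lats1-CKO luminal) and 68.8 in BM8 (Lats1-CKO basal-like), and no peak was called in BM3 or BM4. All 4 WT libraries had the peak and 2 of 4 Lats1-CKO libraries did. BM8 was below all 4 WT libraries, and BM7 was above BM6 alone. This set of 6 libraries was shared by 1485 of all regions (0.811%).

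The mean for Csn1s2b was 87.9 ± 8.72 in WT (SD, n = 4) and 38.3 ± 44.6 in Lats1-CKO (n = 4), a Lats1-CKO minus WT difference of -49.7 percentile points (exact permutation test, p = 0.0571; adjusted p = 1). Without BM3 the difference was -36.9 (exact permutation p = 0.0571; adjusted p = 0.477). It did not pass the test in either. Without BM7 it was -65.0, with no overlap (exact permutation p = 0.0286), and did not pass after adjustment. With BM7 left out, 507 genes had no overlap between genotypes, in either direction. The Lats1-CKO libraries spread from 0 to 84.3, a wider range than that of the WT libraries. Between populations the mean was 59.2 ± 40.6 in basal-like and 67.0 ± 45.0 in luminal libraries (difference -7.77, exact permutation p = 0.600; adjusted p = 1), within the spread of each. A second, weaker peak of the gene overlapped an exon at chr5:87812629-87812723, with a percentile of 6.57 in BM1 and 18.9 in BM2 and none in the other 6 libraries.

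The intronic region of Csn1s2b was the only 1 of the 20 regions with the STAT5 element, searched as TTCNNNGAA on both strands. Of all 183173 regions, 5.65% held it. The match, TTCCAAGAA at chr5:87820429-87820437, stood in the outer part of the region. It was whole in the peaks of BM1, BM2, BM6 and BM7 and outside, at least in part, those of BM5 and BM8. A single base separated it from a match to the RUNX core TGTGGT, which 20.6% of all regions held. The 300 bases from the middle of the region, chr5:87820155-87820454 on the plus strand of GRCm38, are shown because they hold both matches, in capitals.
Csn1s2b intron: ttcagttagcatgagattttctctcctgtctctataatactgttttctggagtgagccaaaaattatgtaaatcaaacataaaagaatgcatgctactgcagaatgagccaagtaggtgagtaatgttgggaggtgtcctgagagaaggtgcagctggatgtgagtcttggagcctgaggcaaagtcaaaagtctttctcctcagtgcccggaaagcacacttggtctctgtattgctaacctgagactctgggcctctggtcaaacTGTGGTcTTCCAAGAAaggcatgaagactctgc

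Csn3 (ENSMUSG00000001622, chr5:87925579-87932665, plus strand), the gene of κ-casein, was the only casein with a peak at its start site, at chr5:87925410-87925660. Its percentile was 73.5 in BM1, 38.8 in BM2, 53.4 in BM6 and 68.8 in BM8. No peak was called in BM5, BM3, BM7 or BM4. It was thus seen in 3 of 4 WT and 1 of 4 Lats1-CKO libraries, and in 1 of 4 luminal and 3 of 4 basal-like libraries. The set of 4 libraries was shared by 89 of all regions (0.0486%). The mean was 41.4 ± 31.1 in WT and 17.2 ± 34.4 in Lats1-CKO (SD, n = 4 each), with a difference of -24.2 (exact permutation p = 0.371; adjusted p = 1). The difference was within the spread of the libraries, and replicates of the same group differed in whether the peak was called.

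The 169 bases of this region that precede the gene, chr5:87925410-87925578 on the plus strand, hold an AP-1 element (TGANTCA, in capitals) that lies whole in the peaks of all 4 libraries. AP-1 elements are bound by Fos and Jun dimers. The element was in 25.9% of all regions and in 3 of the 20 regions of these genes.
Csn3 upstream: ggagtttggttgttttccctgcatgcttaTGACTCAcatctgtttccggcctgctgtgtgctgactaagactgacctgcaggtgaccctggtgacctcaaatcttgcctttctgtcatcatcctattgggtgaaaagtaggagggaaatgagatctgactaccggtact

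Start sites without peaks were examined through their promoter sequences from RefSeq (GRCm38.p6), 250 bases before the start. Of the 9 milk protein genes, 6 were in the table. The STAT5 element was found in 3 of them, Csn1s1, Csn2 and Glycam1, against 7.02% of 32851 promoters, and not in Csn1s2a, Wap or Lalba. It began 100 bases before the RefSeq start of Csn1s1, 93 before that of Csn2 and 145 before that of Glycam1. The RefSeq start of Csn2 and the element before it both lie inside the GENCODE coordinates of the gene given above. No library had a peak in any of the 6 promoters. The elements are shown in capitals with 10 bases on each side, in the direction of the gene, from chr5:87666098-87666126 (plus strand), chr5:87699500-87699528 (minus strand) and chr15:103565208-103565236 (minus strand).
Csn1s1 element: tttgtaacaaTTCTTAGAAtttatgtaaa
Csn2 element: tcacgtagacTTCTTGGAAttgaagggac
Glycam1 element: gccaactcatTTCCCAGAAacaccaattc

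The whole 250 bases before Csn1s1, chr5:87665958-87666207 on the plus strand, are given as the promoter of a major casein that no library showed as open. They also hold an AP-1 element (6.75% of promoters), and both are in capitals.
Csn1s1 promoter: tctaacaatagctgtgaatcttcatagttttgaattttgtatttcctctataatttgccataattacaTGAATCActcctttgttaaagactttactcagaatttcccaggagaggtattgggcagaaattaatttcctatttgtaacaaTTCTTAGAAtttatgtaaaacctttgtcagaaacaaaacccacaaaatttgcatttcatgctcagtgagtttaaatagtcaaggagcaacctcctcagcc

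Glycam1 (ENSMUSG00000022491, chr15:103562759-103565081, minus strand) encodes a mucin-like glycoprotein secreted into milk and had no peak in any library. Its promoter, chr15:103565082-103565331 read along the minus strand, is shown with the STAT5 element in capitals for comparison with that of Csn1s1.
Glycam1 promoter: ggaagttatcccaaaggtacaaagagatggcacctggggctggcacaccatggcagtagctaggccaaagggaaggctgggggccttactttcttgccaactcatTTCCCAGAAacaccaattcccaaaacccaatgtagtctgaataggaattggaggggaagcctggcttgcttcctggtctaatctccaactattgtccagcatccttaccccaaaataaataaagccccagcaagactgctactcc

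Wap (ENSMUSG00000000381, chr11:6635482-6638637, minus strand) encodes whey acidic protein, a major protein of rodent milk. It had a single region, at chr11:6628667-6628815, which lay downstream of the gene, 9896 bp from its start and 2674 bp from the start site of Tbrg4, a gene of mitochondrial RNA handling. The percentile was 61.6 in BM1, 78.8 in BM2 and 65.1 in BM6, with no peak in BM5. In Lats1-CKO it was 91.2 in BM7, 81.7 in BM4 and 84.6 in BM8, with no peak in BM3. The 3 Lats1-CKO libraries with the peak were above all 4 WT libraries. The mean was 51.4 ± 35.1 in WT and 64.4 ± 43.1 in Lats1-CKO (SD, n = 4 each), with a difference of 13 (exact permutation p = 0.486; adjusted p = 1).

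Without BM3 the difference at Wap was 34.4, with a Lats1-CKO mean of 85.8 ± 4.83 (n = 3), and the groups did not overlap, as for 13.1% of genes in this direction (exact permutation p = 0.0571; adjusted p = 0.477). That share of the background is too large for the Wap values to stand out. With BM3 kept and BM5 left out, the difference was -4.14. Between populations the mean was 77.6 ± 8.63 in basal-like and 38.2 ± 45.7 in luminal libraries (difference 39.4, exact permutation p = 0.229; adjusted p = 1). All 4 basal-like libraries had the peak and 2 of 4 luminal libraries did. Without BM7 the population difference was 57.0 with no overlap (exact permutation p = 0.0286; adjusted p = 0.667). With BM7 left out, 955 genes had no overlap between populations, in either direction. Among the top 10000 peaks per library the population difference at Wap was -4.33. The region held none of the 7 motifs searched, and its plus strand is shown as the only open site called near Wap.
Wap downstream: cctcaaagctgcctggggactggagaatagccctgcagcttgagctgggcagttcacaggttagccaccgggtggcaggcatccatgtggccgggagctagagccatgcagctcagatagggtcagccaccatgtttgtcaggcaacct

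Lalba (ENSMUSG00000022991, chr15:98480400-98482721, minus strand) encodes α-lactalbumin, which turns a galactosyltransferase into lactose synthase. It had 3 regions, all away from its own start site, and none was seen in more than 2 libraries. The strongest, chr15:98492183-98492533, was at the start site of the olfactory receptor gene Olfr279, 44 bp from it, with a percentile of 46.8 in BM7 and 71.4 in BM8 and no peak in the other 6 libraries. The other regions were chr15:98475550-98475634 (10.3 in BM6 and 1.23 in BM7) and chr15:98476576-98476680 (8.57 in BM8). Of the WT libraries, BM6 alone had a peak in the Lalba window. The mean highest percentile was 2.57 ± 5.14 in WT and 29.6 ± 35.6 in Lats1-CKO (SD, n = 4 each; difference 27.0, exact permutation p = 0.429; adjusted p = 1), or 36.8 without BM3 (exact permutation p = 0.143; adjusted p = 0.532).

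The first of these Lalba regions holds a match to the core of the CTCF element, which binds the insulator protein CTCF and was searched as CCA and AG with 2 free bases between them and, after 2 more, GGC. It was the only match among the 20 regions, against 6.96% of all regions. The 85 bases of chr15:98475550-98475634 are shown on the plus strand with the match in capitals, which is on the minus strand.
Lalba distal: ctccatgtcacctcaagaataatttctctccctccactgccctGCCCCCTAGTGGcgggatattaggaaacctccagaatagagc

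Btn1a1 (ENSMUSG00000000706, chr13:23456992-23465901, minus strand) encodes butyrophilin, a membrane protein needed to secrete milk fat globules, and had the most regions of the 10 genes, with 7. Its start site had a peak, chr13:23465762-23466043, in 3 libraries, with a percentile of 43.5 in BM5, 24.3 in BM2 and 33.2 in BM7. A neighboring region upstream, chr13:23466448-23466561, was called in 5 libraries, with 68.4 in BM1, 66.7 in BM5, 43.6 in BM2, 9.45 in BM7 and 26.4 in BM8. At this upstream region the WT luminal libraries were the highest, and BM6, BM3 and BM4 had no peak. It holds a match to the TEAD core GGAATG (15.3% of all regions), the element read by the partners of YAP and TAZ.

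A pair of the Btn1a1 regions lay over annotated tRNA genes. Region chr13:23467000-23467201, upstream of Btn1a1, covers n-TYgta8, a tyrosine tRNA gene (RefSeq, chr13:23467076-23467165, plus strand). It had a percentile of 23.3 in BM2, 19.6 in BM6, 51.5 in BM7, 21.6 in BM4 and 54.1 in BM8, and no peak in BM1, BM5 or BM3. The peaks of BM7 and BM8 spanned the whole tRNA gene, while those of BM2, BM6 and BM4 ended inside it. All 4 basal-like libraries had a peak in this region, and 1 of the 4 luminal libraries. Exactly this set of libraries was shared by 769 of all regions (0.420%), and sets like it were not counted. An intronic region, chr13:23463468-23463616, covers n-TEttc5, a glutamic acid tRNA gene (chr13:23463535-23463606, plus strand), and was called in BM2 alone, at 36.1. Of all regions, 0.0983% touch a tRNA gene, and 45.9% of 403 tRNA genes of RefSeq had a region in any library. By library, the share of tRNA genes with a peak was 2.73% in BM3, 15.1% in BM5, 17.4% in BM6 and 26.1% to 32.3% in the other 5. The tRNA genes are transcribed by RNA polymerase III, and Btn1a1 by RNA polymerase II.

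The region over n-TYgta8 is shown on the plus strand, with the tRNA gene in capitals.
Btn1a1 upstream tRNA: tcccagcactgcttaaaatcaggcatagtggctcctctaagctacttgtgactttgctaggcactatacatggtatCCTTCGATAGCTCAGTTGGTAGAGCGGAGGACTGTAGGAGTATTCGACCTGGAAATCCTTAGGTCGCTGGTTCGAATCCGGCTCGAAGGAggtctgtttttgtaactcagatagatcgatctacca

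The last 3 regions, all upstream, were each called in a single library, with a percentile of 63.0 in BM2 and of 20.3 and 68.9 in BM7. For the gene as a whole, the WT libraries had a highest percentile of 63.0 in BM2, 19.6 in BM6, 68.4 in BM1 and 66.7 in BM5. In Lats1-CKO it was 68.9 in BM7, 21.6 in BM4 and 54.1 in BM8, with 0 in BM3. The mean was 54.4 ± 23.3 in WT and 36.2 ± 31.2 in Lats1-CKO (SD, n = 4 each; difference -18.3, exact permutation p = 0.371; adjusted p = 1). Without BM3 this difference was -6.24 (exact permutation p = 0.657; adjusted p = 0.870). Between populations it was 39.6 ± 22.2 in basal-like and 51.0 ± 34.0 in luminal libraries (difference -11.5, exact permutation p = 0.714; adjusted p = 1). Without BM3 the luminal mean was 68.0 ± 1.17 (n = 3) and the 3 luminal libraries were above all 4 basal-like ones, as for 2.48% of genes (difference -28.5, exact permutation p = 0.0857; adjusted p = 1). The luminal values came from different places, the neighboring upstream region in BM1 and BM5 and a region 6054 bp before the start in BM7.

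**Figure D4:**
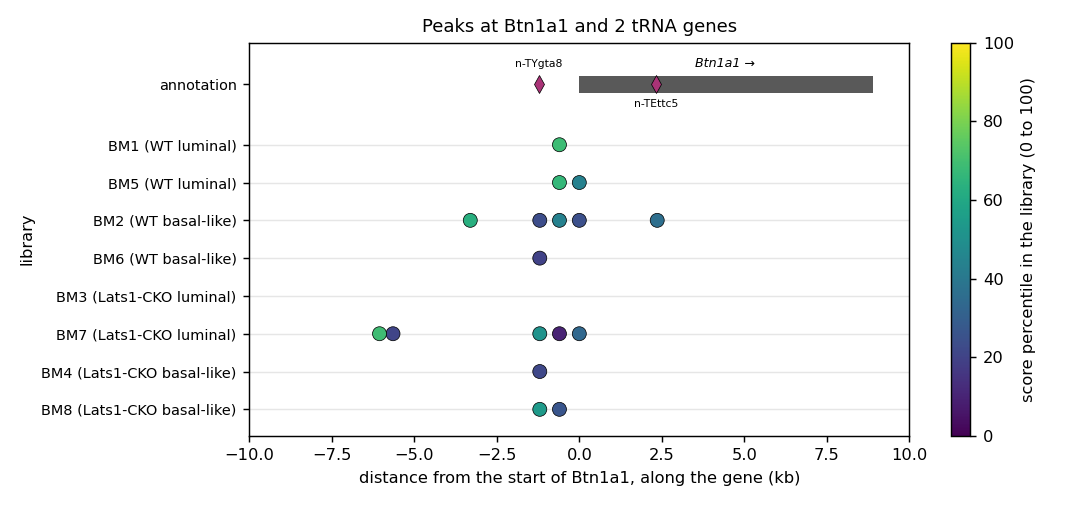
Peaks at Btn1a1, by distance from its start along the gene in kb (horizontal axis) and library (vertical axis). The bar is the gene, diamonds are the tRNA genes n-TYgta8 and n-TEttc5, and color gives the score percentile in the library (0 to 100). The points under n-TYgta8 are present in 5 libraries, among them all 4 basal-like ones.

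Stat5a (ENSMUSG00000004043, chr11:100859351-100885169, plus strand) encodes the STAT5 protein that prolactin activates in the mammary gland, and was the only 1 of the 10 genes with a peak in all 8 libraries, which 45% of protein-coding genes had, or 32.3% when only 1 kb around start sites was searched. The shared peak, chr11:100860135-100860628, lay at an internal start site, 1030 bp inside the gene. In WT its percentile was 81.6 in BM1 and 83.3 in BM5, the luminal libraries, and 81.9 in BM2 and 76.7 in BM6, the basal-like ones. In Lats1-CKO it was 93.9 in BM7 and 29.2 in BM3 (luminal), and 91.7 in BM8 and 91.7 in BM4 (basal-like). The 3 Lats1-CKO libraries other than BM3 were the highest, the 4 WT libraries followed, and BM3 was the lowest. Of all regions, 10907 (5.95%) had a peak in all 8 libraries.

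The first start site of Stat5a had its own region, chr11:100859291-100859445, called in 6 libraries. There it reached 83.3 in BM6, 57.4 in BM1, 64.5 in BM5, 59.1 in BM7, 58.0 in BM4 and 77.7 in BM8, with no peak in BM2 or BM3. In BM6 it was the highest peak of the gene. Both start sites thus had a peak in 6 of the 8 libraries.

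The highest percentile at Stat5a had a mean of 82.6 ± 0.891 in WT (SD, n = 4) and 76.6 ± 31.6 in Lats1-CKO (n = 4), a Lats1-CKO minus WT difference of -5.93 (exact permutation p = 1; adjusted p = 1). Without BM3 the Lats1-CKO mean was 92.4 ± 1.24 (n = 3) and the difference 9.87, with no overlap (exact permutation p = 0.0286; adjusted p = 0.477), as for 13.1% of all genes. The sign of this measure thus turned when BM3 was left out. With BM3 kept, it was also positive with the 10000 highest peaks (18.2) and by number of peaks (0.25). The percentile was then taken among regions called in every library, an alternative chosen after the data had been seen. Among 22995 regions with a peak in the 7 libraries other than BM3, that of Stat5a was at 55.8 in BM2, 54.3 in BM6, 52.1 in BM1 and 64.7 in BM5. It was at 77.8 in BM7, 73.5 in BM4 and 70.5 in BM8 (difference 17.2, exact permutation p = 0.0571; adjusted p = 0.684). The Lats1-CKO libraries were again the higher ones without overlap, as for 4.4% of these regions, and the test was not passed. With BM3, over 10907 regions, the difference was 13.5 and the libraries overlapped (exact permutation p = 0.257; adjusted p = 0.905), beside 2.36% of regions higher in every Lats1-CKO library.

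Between populations the highest percentile at Stat5a was 87.2 ± 5.26 in basal-like and 72.0 ± 29.0 in luminal libraries (SD, n = 4 each; difference 15.2, exact permutation p = 0.514; adjusted p = 1). Without BM3 the luminal mean was 86.3 ± 6.62 (n = 3) and the difference 0.906 (exact permutation p = 0.886; adjusted p = 1). No difference between luminal and basal-like cells was detectable at Stat5a, and the value without BM3 was well inside the SD of either population.

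**Figure D5:**
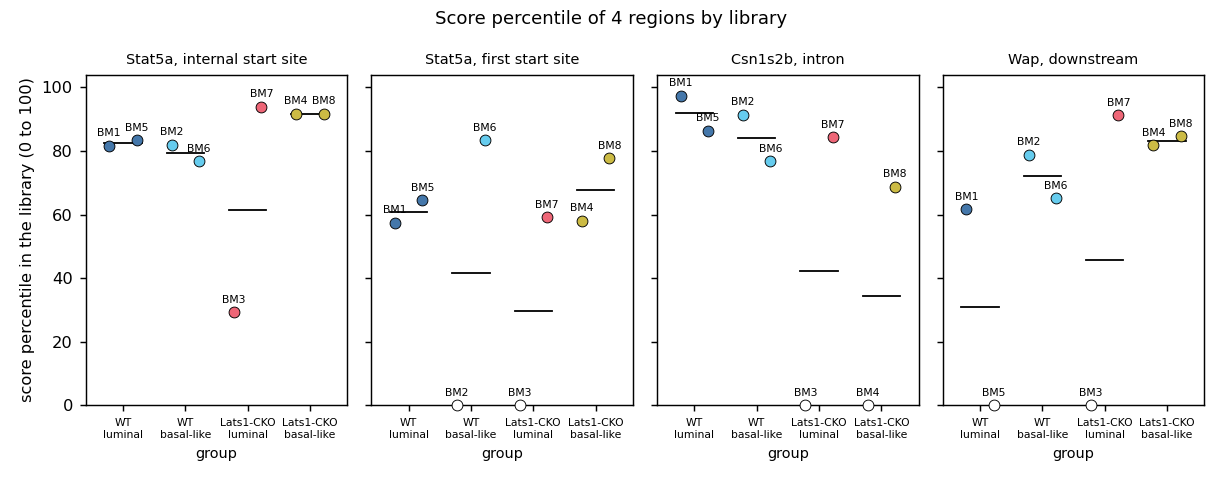
Score percentile (0 to 100) of 4 regions by group. Points are libraries, open points at 0 are libraries with no peak, and lines are group means over 2 libraries with open points counted as 0. At the internal start site of Stat5a, BM7, BM4 and BM8 are at 91.7 to 93.9, the WT libraries at 76.7 to 83.3 and BM3 at 29.2.

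The other Stat5a regions were less shared. The gene stands head to head with Stat5b, its close paralog, and a pair of regions in its window lay at or near the start site of Stat5b. Region chr11:100850446-100850717 was called in BM1 (19.6) and BM8 (40.6), and chr11:100851268-100851409 in BM1 (2.45), BM2 (42.4), BM7 (35.4), BM4 (58.0) and BM8 (43.3). Inside the gene, region chr11:100878305-100878406 was called in BM7 alone (26.2) and chr11:100870656-100870887 in BM6 alone (38.1). The region of BM6 holds an estrogen response element, searched as GGTCA and TGACC with 3 free bases between them, which only 0.0655% of all regions had, and a RUNX core. Estrogen response elements are bound by estrogen receptor α.

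The intronic region called in BM6 is shown whole on the plus strand, with both elements in capitals, and the 210 bases of the shared region that lie before its exon, chr11:100860135-100860344, with a TEAD core in capitals that is whole in the peak of BM4 alone. The shared stretch is 71.4% G and C.
Stat5a intron: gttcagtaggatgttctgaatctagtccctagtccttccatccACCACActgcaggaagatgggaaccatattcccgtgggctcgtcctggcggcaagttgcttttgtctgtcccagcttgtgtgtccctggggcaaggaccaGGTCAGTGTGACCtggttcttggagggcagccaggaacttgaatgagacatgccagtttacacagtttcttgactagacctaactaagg
Stat5a internal start: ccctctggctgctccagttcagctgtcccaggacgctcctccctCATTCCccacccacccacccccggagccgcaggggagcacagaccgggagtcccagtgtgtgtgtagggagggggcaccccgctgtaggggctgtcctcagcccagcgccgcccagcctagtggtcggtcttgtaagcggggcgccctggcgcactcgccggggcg

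By Euclidean distance over the 8 values of highest percentile, the protein-coding genes most like Stat5a were Stat5b (distance 6.29), Ttc28 (8.15), Rcor3 (8.18), Nubp1 (8.94) and Cox19 (8.95). Stat5b shares peaks with Stat5a because their windows overlap. Its values were 81.6 in BM1, 88.6 in BM5, 81.9 in BM2, 83.3 in BM6, 29.2 in BM3, 93.9 in BM7, 91.7 in BM4 and 95.1 in BM8. All 5 genes were lowest in BM3, which follows from choosing them by nearness to Stat5a over these same values.

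Genes of prolactin and STAT5 signalling gave a picture unlike that of the milk protein genes. Of 18 such genes, 14 had a peak in all 8 libraries (45% of protein-coding genes did) and none lacked a peak throughout. These counts take in the gene body, where a longer gene has more room for a peak, and gene length was not accounted for. Within 1 kb of a start site, 16 or 17 of the 18 had a peak in every library but BM3, where 10 had. Of the milk protein genes and Stat5a, 1 to 3 of 10 had. The background was 50.5% to 58.8% of protein-coding genes in the libraries other than BM3 and 34.3% in BM3. The receptor gene Prlr had a peak in all 8 libraries, at 94.4 in BM1, 81.8 in BM5, 91.9 in BM2, 34.7 in BM6, 62.9 in BM3, 89.7 in BM7, 48.5 in BM4 and 68.8 in BM8. BM2 and BM6, both WT basal-like, differed more from each other than BM1 and BM5 did.

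Those with a peak in all 8 libraries and a median percentile over 90 were, among receptors, Ghr (90.4), the growth hormone receptor, and Igf1r (99.2), the IGF1 receptor. Among transcription factors they were Stat3 (95.8), Nfib (96.6), Gata3 (95.3), the glucocorticoid receptor Nr3c1 (90.7) and the HLH inhibitor Id2 (92.4). Among inhibitors of cytokine signalling they were Cish (90.2), Socs3 (98.7) and the phosphatase gene Ptpn1 (92.0). None of the 18 was separated by genotype or population in all 8 libraries. Without BM3, Stat5b, Stat3, Socs1 and Socs2 were higher in every Lats1-CKO library, 4 of 18 beside 13.1% of all genes. In BM1, BM2, BM3, BM4 and BM7 the value of Stat5b was that of the peak at the internal start site of Stat5a. Stat5b is thus not independent of Stat5a in these counts. The median Lats1-CKO minus WT difference of the list over all 8 libraries was -3.60 points, beside -2.01 over all genes.

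Of 18 other milk and secretory genes, 5 had a peak in all 8 libraries, beside 45% of protein-coding genes. Lao1, which encodes an amino acid oxidase of milk, and Odam had none in any library, 2 of 18 beside 15.6% of protein-coding genes. Within 1 kb of a start site, 8 to 12 had a peak in the libraries other than BM3, and 3 in BM3. Of all protein-coding genes, 50.5% to 58.8% had one there in the libraries other than BM3, and 34.3% in BM3. Trf, the transferrin gene, had a peak in all 8 libraries with a median percentile of 91.3. The median Lats1-CKO minus WT difference over this list was -5.02 points, beside -2.01 over all genes. A pair of these genes, Muc1 and Spp1, did not overlap between genotypes in all 8 libraries.

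Muc1, which encodes a mucin of the apical luminal membrane and of the milk fat globule, had a highest percentile of 71.4 in BM2, 39.8 in BM6, 61.2 in BM1 and 39.1 in BM5. In Lats1-CKO it was 75.3 in BM3, 88.5 in BM7, 78.7 in BM4 and 87.8 in BM8. Every Lats1-CKO library was above every WT library, BM3 included, as for 0.394% of genes (difference 29.7, exact permutation p = 0.0286; adjusted p = 1). The highest peak was near the start of Muc1 in BM1, BM3, BM6 and BM8 and nearer to that of its neighbor Mtx1 in BM2, BM4, BM5 and BM7. The value thus joins 2 nearby promoters.

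Spp1, which encodes osteopontin, a secreted phosphoprotein found in milk and bone, had a highest percentile of 92.1 in BM2, 92.2 in BM6, 85.9 in BM1 and 83.3 in BM5. In Lats1-CKO it was 83.1 in BM7, 80.7 in BM4 and 78.4 in BM8, with no peak in BM3. Every Lats1-CKO library was below every WT library, as for 0.626% of genes (difference -27.8, exact permutation p = 0.0286; adjusted p = 1). The gap between BM5 and BM7 was small beside the spread of the WT libraries. Without BM3 the difference was -7.64, still with no overlap, as for 0.686% of genes. The peak was at the Spp1 start site in all 7 libraries that had it.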

How the data were processed

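ATAC-seq of 8 libraries was analysed from the peak lists that the authors deposited. Per the labels and the study's methods, adapters were removed with cutadapt, unique alignments to mm10 were made with Bowtie 1.0.0, and these were cleared of mitochondrial and duplicate reads (Picard 2.3.0) and long fragments. The labels give no batch. Peaks were called in each library with MACS2 (2.1.1.20160309 in the submitters' processing notes, another release in the methods) and cleared of blacklisted regions. The deposited score of a peak is a whole number of at least 13, taken from its values to be that of MACS2. Scores are not comparable between libraries, and each was turned into its percentile among the peaks of its own library. Read counts are not part of the lists, so depth per library is unknown and the study's DiffBind comparison could not be repeated.

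Overlapping or touching peaks were joined across libraries, giving 183173 regions, and 1 bp of overlap with a gene window counted. Start sites came from GENCODE M21, and sequence, promoters and tRNA genes from RefSeq on GRCm38.p6. Both strands of whole regions were searched for motifs: STAT5 TTCNNNGAA, AP-1 TGANTCA, RUNX TGTGGT, TEAD GGAATG, NFI (TTGGC and GCCAA with 5 free bases between them), CTCF and the estrogen response element as given with their results. No region of the genes held the NFI element. Two-sided exact permutation tests over libraries were checked on simulated data and adjusted by the Benjamini-Hochberg method. Python 3.11.15, numpy 2.4.6, pandas 2.3.3 and pysam 0.24.0 were used.

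The genes, gene lists and tests were chosen with earlier results of these data known. All 10 genes are named. Of the lists of prolactin and STAT5 signalling genes and of other milk and secretory genes, those are named that had no overlap between sides, a peak in no library, or a peak in all 8 libraries with a median percentile over 90, and so are the 5 genes nearest to Stat5a. The Prlr values and the genes separated without BM3 were named after their values were seen. Alternatives were leaving out single libraries, the top 10000 peaks by score, peaks above the median score, windows of 5 and 50 kb, start sites without the gene body, the first start site alone, peak centres, all coding genes, labels permuted within the other factor, the number of peaks in place of the percentile, and a shorter region and longer form of the STAT5 element. A 1 kb window and the percentile among shared regions were added after the data had been seen.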

Additional observations from a re-analysis of the deposited data

Results flagged for a closer look

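In 10 of 32 sets of 4 libraries (a genotype or a population, for a gene or for the counts over the genes), the highest or lowest library stood far from the other 3 by Dixon's test. Chance would do so in about 1 in 20 sets, the sets share libraries, and many of the values are 0 for want of a peak.

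BM3 was far below the other libraries in 4 of these sets. Its highest percentile was 0 at Csn1s2b and at Btn1a1 among the luminal libraries, 0 at Wap among the Lats1-CKO libraries, and 29.2 at Stat5a among the Lats1-CKO libraries.

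In 4 sets a single library had a peak, or its peak was far above the rest. BM8 was at 68.8 at Csn3 among Lats1-CKO libraries, BM1 at 73.5 at Csn3 among luminal libraries, BM7 at 46.8 at Lalba among luminal libraries and BM6 at 10.3 at Lalba among WT libraries. At Lalba, BM8 was also far above the other basal-like libraries, at 71.4. At Btn1a1, BM6 was far below the other WT libraries, at 19.6.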

How the results depend on the processing

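No paired analysis was possible because the labels carry no replicate numbers. With single libraries left out, 17 to 20 regions and 6 of the 10 genes kept a peak, and the mean number of genes per library was 4.33 to 5.33 in WT and 3 to 4.67 in Lats1-CKO. The top 10000 peaks left 4 regions at 3 genes (mean 1.25 in WT and 1.00 in Lats1-CKO), peaks above the median score 11 regions, a 5 kb window 12, and a 50 kb window 101 regions at all 10 genes (mean 9.00 and 6.75). These Lats1-CKO means include BM3. The share of all protein-coding genes is not given for these settings, so the counts cannot be read against a background. A 1 kb window, chosen after the data had been seen, left 3 genes (mean 2.50 and 1.75). The STAT5 element was in 0 regions in the central 200 bp or in its longer form, TTCC and GGAA with 2 free bases between them.

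Genes without overlap numbered 312 to 2556 for genotype and 307 to 955 for population with a library left out, and 18 and 48 by number of peaks. The Lats1-CKO minus WT difference at Stat5a ranged from -11.7 to 9.87 with single libraries left out and turned positive without BM3 (9.87), with the 10000 highest peaks (18.2), by number of peaks (0.25) and among shared regions (13.5, and 17.2 without BM3), and its adjusted p was 0.477 to 1 over all alternatives. That at Wap ranged from -4.14 to 34.4 with single libraries left out and turned negative without BM5 (-4.14) and at 50 kb (-5.95), with an adjusted p of 0.477 to 1, and that at Csn1s2b stayed negative with a library left out (-65.0 to -36.9; adjusted p 0.477 to 1). The basal-like minus luminal difference at Csn1s2b ranged from -30.1 to 12 and turned positive without BM1 (2.34) and BM4 (12). It turned negative at Wap with the 10000 highest peaks (-4.33) and at Stat5a among shared regions without BM3 (-1.37). The cause was not tested. Start sites without the gene body, the first start site alone and peak centres turned no direction at Csn1s2b, Wap or Stat5a.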
